A study of Rattus norvegicus with 9 samples.

Results

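The comparison described here sets the ileum of rats after Roux-en-Y gastric bypass (RYGB) with FDG increased against the ileum of rats after a sham operation. Both groups are Otsuka Long-Evans Tokushima Fatty rats. This strain has no working cholecystokinin A receptor, overeats and goes on to obesity and diabetes, so the controls carry the same inherited defect. Total RNA of the tissue was taken 1 month after the operation, from 3 samples of each group, and the labels do not say whether these are separate animals, so that p-values measure the spread between these samples only. FDG is read here as fluorodeoxyglucose, a glucose analogue that cells take up and trap and that is imaged to show where glucose is used; the labels do not spell it out. The members are all genes whose mean over these 6 libraries reached 1 FPKM (fragments per kilobase of transcript, scaled to the library's mapped fragments), 10801 of 17145 genes in the table. P2rx2 lay just inside this limit, at a mean of 1.00 FPKM, and Izumo1 just outside it, at 0.998 FPKM.

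In RYGB a small pouch of the stomach opens straight into the jejunum; food then misses most of the stomach and the duodenum and reaches the distal bowel less digested. The ileum is the last part of the small intestine. Its enterocytes take back bile acids with the transporter Slc10a2, carry them inside the cell on Fabp6 and release them through Slc51a, while its endocrine cells make peptide YY, glucagon-like peptides and neurotensin. Lactase (Lct), the hormone Gip and the transcription factor Gata4 belong to the duodenum and jejunum. Cells that meet a growth factor, stretch, injury or heat switch on immediate-early genes within minutes, and heat shock factor raises chaperones such as Hspa1b when proteins unfold.

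The 6 libraries were checked against these markers first. Fabp6 stood at 16503, 18963 and 22955 FPKM in FDG-increased ileum, in the order of replicates 1, 2 and 3 used for all values below. In sham ileum it stood at 22.6, 8375 and 11347 FPKM. Slc10a2 stood at 99.4, 189 and 578 FPKM in FDG-increased and 2.603, 67.3 and 119.9 FPKM in sham ileum. Sham replicate 1 was thus low in both of these genes of the ileum. It also held genes of the upper bowel: Lct was at 253, 8.60 and 0.317 FPKM in the sham libraries and 1.22, 0.533 and 0.697 FPKM in the FDG-increased ones. Gata4 was at 59.8, 9.82 and 0.0853 FPKM in sham and 0.176, 0 and 0.0418 FPKM in FDG-increased ileum, so that sham replicate 2 stood between the other sham libraries. The ileal markers Fabp6 and Slc10a2 were high in 5 libraries and low in sham replicate 1, while sham replicate 2 held both kinds of marker. List counts and medians are given with all libraries. Most medians and some counts are also given without sham replicate 1.

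**Figure D1:**
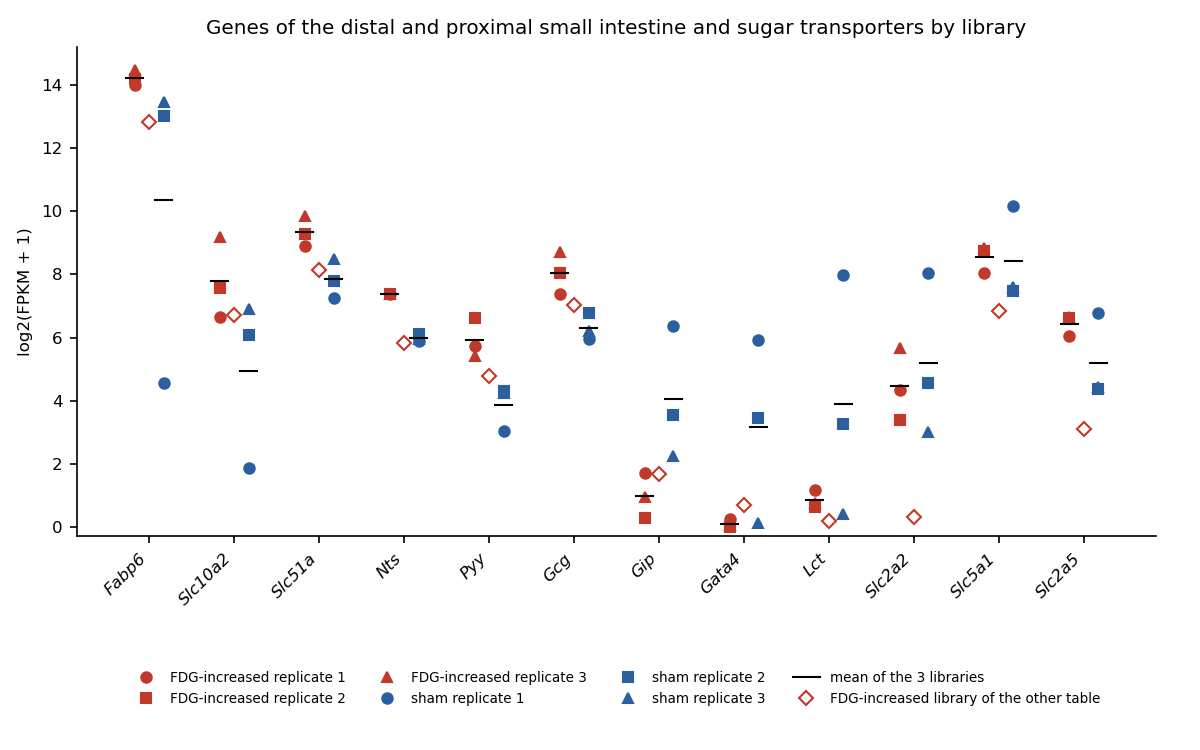
Level of 12 genes, as log2(FPKM + 1), in each library: red, FDG-increased ileum; blue, sham ileum; symbols, replicates; bars, means of 3 libraries; open diamonds, the further FDG-increased library from the other table, on the scale of this one. Sham replicate 1 (blue circles) stands apart, with the lowest Fabp6 (22.6 FPKM) and the highest Lct (253 FPKM), while Nts, Pyy and Gcg separate the 3 tested FDG-increased libraries from sham; the open diamond of Nts (56.4 FPKM) lies below the sham points.

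FDG-increased replicate 3 stood apart as well. On the first principal component of all members, with 44.9% of the variance, it lay at -63.9 and sham replicate 1 at 39.2, with the other libraries between -12.8 and 18.7. The second component, with 25.9%, put the FDG-increased libraries at 13.9 to 27.4 and the sham libraries at -45.5 to -0.17. The sum of FPKM was 611736 to 864511 in FDG-increased and 465697 to 569504 in sham libraries; depth is unknown, since no counts come with the values. The labels give lane 7 for all sham samples and FDG-increased replicate 1, and lane 4 for FDG-increased replicates 2 and 3. LOC257642, a symbol that the RefSeq gene table used here does not hold and that was picked out after its values were seen, stood at 5136, 1898 and 894 FPKM in FDG-increased and 14994, 13784 and 22241 FPKM in sham ileum, among the most abundant rows of the table; its part in the differences below was not tested. The other deposited table repeats FDG-increased replicates 2 and 3 under the numbers 1 and 2 and holds a further FDG-increased library as its replicate 3, so the tables hold 4 such libraries against 3 in the labels. Which table's numbers match the labels is not known, so the lane of each FDG-increased column is uncertain; the numbers and lanes used here are those of the columns in this table. That further library was scaled separately, so it enters no test; its values are given on the present scale after multiplying by 1.02, the ratio found in the repeated libraries.

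Over all members few genes passed correction, and more were higher than lower. Differences are of log2(FPKM + 1), FDG-increased minus sham, which understates genes of low level; tests are limma with Benjamini-Hochberg adjustment. At an adjusted p under 0.05, 4 genes rose and 0 fell, 0.037% of those tested. At an unadjusted p under 0.05, 664 genes (6.15%) were higher and 183 (1.69%) lower. The lowest FDG-increased library exceeded the highest sham library for 1153 genes (10.7%) and the reverse held for 480 (4.44%), and the difference was above 0 for 64.7% and below 0 for 35.3%. The median difference was 0.13. After shifting every library to one median it was 0.00, and the split at an unadjusted p under 0.05 was 528 higher and 368 lower. The median difference grew with level: it was -0.0046 for 4248 genes with a mean of 1 to 10 FPKM, 0.19 for 5666 genes of 10 to 100, 0.40 for 801 genes of 100 to 1000, and 0.68 for the 86 genes above. Of differences beyond 2 log2 units, 42 were higher and 14 lower.

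**Figure D2:**
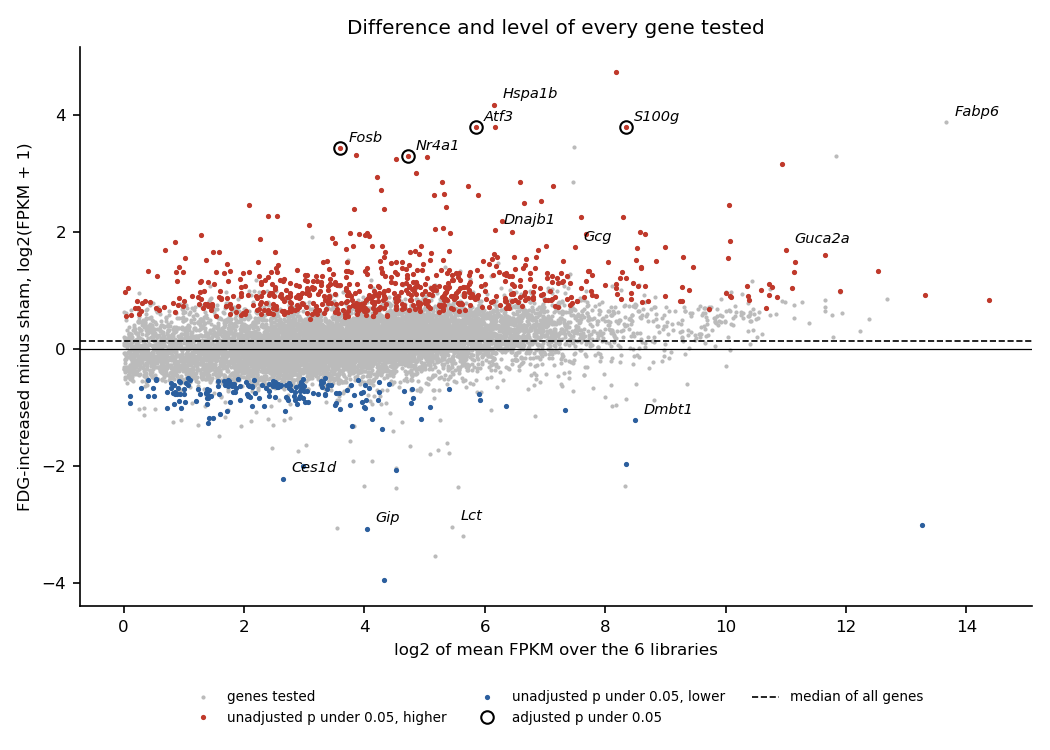
Each point is 1 of the 10801 members: horizontal axis, log2 of its mean FPKM over 6 libraries; vertical axis, its difference on the log2(FPKM + 1) scale. The 4 circled genes passed an adjusted p under 0.05 and all rose; at the right, where levels are high, the cloud lies above the dashed median of 0.13.

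Single libraries decided these counts. Limma called 0 genes at an adjusted p under 0.05 without FDG-increased replicate 1 (824 higher, 118 lower at unadjusted p below 0.05), 0 without replicate 2 (434 and 91) and 13 without replicate 3 (500 and 329). It called 0 without sham replicate 2 (376 and 114) and 7 without sham replicate 3 (521 and 142). Without sham replicate 1 it called 1 gene, 0.00926% of those tested, with 802 (7.43%) higher and 236 (2.18%) lower at unadjusted p below 0.05; the groups then did not overlap for 2436 (22.6%) higher and 890 (8.24%) lower genes. Of the 664 higher genes 444 (66.9%) were also among the 802 (55.4% of them), and of the 183 lower genes 110 (60.1%) were also among the 236 (46.6%). FDG-increased replicate 1, by its column number the library of lane 7, against the sham libraries gave 0 calls in limma, with 149 higher and 108 lower at unadjusted p below 0.05, in a fit where the single library is assumed to have the spread of the sham group.

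Immediate-early transcription factors led the genes that rose. Atf3, a stress-induced factor of the CREB family, stood at 80.9, 149.9 and 95.0 FPKM in FDG-increased and 9.60, 3.81 and 7.69 FPKM in sham ileum. Fosb, a subunit of AP-1, stood at 15.2, 34.7 and 19.0 FPKM against 1.22, 0.402 and 1.93 FPKM, and Nr4a1, an orphan nuclear receptor, at 51.6, 54.3 and 38.6 FPKM against 1.85, 4.39 and 6.97 FPKM. The groups did not overlap for any of the 3. The differences were 3.80 (SE 0.378), 3.44 (SE 0.373) and 3.29 (SE 0.378) log2 units, each with an adjusted p of 0.0306 in limma. Without sham replicate 1 they were 4.03, 3.48 and 2.89, with adjusted p in limma of 0.0874, 0.187 and 0.0896. With replicate 1, by its number on lane 7, as the only FDG-increased library they were 3.42, 2.96 and 3.41, with adjusted p in limma of 0.171, 0.319 and 0.36.

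Of 24 measured immediate-early factors, 19 were higher at an unadjusted p under 0.05 and 0 lower, where 6.15% and 1.69% of all genes were; for 14 the FDG-increased libraries lay above without overlap, as for 10.7% of all genes. The median over the list was 1.47, against 0.13 for all genes, and 1.54 without sham replicate 1; it stayed above 0 in all 15 alternative settings, between 1.25 and 1.77. Egr1, a zinc finger factor, stood at 81.0, 93.5 and 37.1 FPKM in FDG-increased against 6.81, 10.5 and 12.4 FPKM in sham ileum, 2.65 higher with an adjusted p of 0.0963 in limma. Fos stood at 332, 320.1 and 89.2 FPKM against 57.3, 16.0 and 28.9 FPKM. FDG-increased replicate 3 was the lowest of its group in both genes, though above each sham library. Egr2, Klf6 and Ier2 are shown with their promoters below: Egr2 was at 4.35, 4.23 and 2.12 FPKM against 0.499, 0.573 and 0.440 FPKM, Klf6 at 98.7, 139 and 368 FPKM against 75.1, 78.6 and 76.9 FPKM, and Ier2, a nuclear immediate-early protein, at 163, 124 and 51.5 FPKM against 40.6, 20.4 and 44.3 FPKM. Klf6 held its sham libraries close together and spread widely within the FDG-increased group, with replicate 3 highest, whereas Ier2 was lowest in that replicate. Myc, at a difference of -0.30, Klf2, at -0.31, and Klf10, at -0.19, were the list members below 0, with unadjusted p of 0.361, 0.517 and 0.664 in limma.

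The promoters of some genes of this list show short sequences that immediate-early genes are known for. The CArG box is bound by serum response factor, and TGACGTCA, the cyclic AMP response element, by CREB and ATF proteins. Both were searched on both strands in the 250 bases before each gene's RefSeq start (build GRCr8), and neither motif contains the other. A CArG box was in the window of 3 of 14 immediate-early genes with a promoter in the table (21.4%; Egr1, Egr2 and Klf6), of 1.21% of 8161 tested genes and of 1.5% of all 27457 promoters. TGACGTCA was in 4 of 14 (28.6%; Btg2, Ier2, Jund and Maff), against 2.95% and 1.70%. The AP-1 site TGACTCA was in 0 of 14, against 3.20% and 3.98%. A match describes letters, not binding. Only 14 of the 24 measured factors had a promoter to search. Atf3 and Fos had none, and neither Fosb nor Nr4a1 was among the genes with a match. Printed below are the Egr2 window at chr20:21054442-21054691 (minus strand), Klf6 at chr17:69458479-69458728 (minus strand) and Ier2 at chr19:40399123-40399372 (plus strand), 5′ to 3′, with the CArG box of the first and second and the TGACGTCA of the third in capitals, starting at -83, -201 and -66 relative to the gene start.
Egr2: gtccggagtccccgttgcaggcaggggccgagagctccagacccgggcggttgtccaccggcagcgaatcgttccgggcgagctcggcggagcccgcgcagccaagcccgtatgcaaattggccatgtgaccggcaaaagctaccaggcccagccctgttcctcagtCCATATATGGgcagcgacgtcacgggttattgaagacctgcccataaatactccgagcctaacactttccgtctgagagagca
Klf6: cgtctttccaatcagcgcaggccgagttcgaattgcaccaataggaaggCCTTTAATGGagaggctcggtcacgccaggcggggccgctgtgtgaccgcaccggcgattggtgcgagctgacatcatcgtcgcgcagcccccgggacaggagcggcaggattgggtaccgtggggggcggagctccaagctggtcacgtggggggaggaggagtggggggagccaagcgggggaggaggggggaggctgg
Ier2: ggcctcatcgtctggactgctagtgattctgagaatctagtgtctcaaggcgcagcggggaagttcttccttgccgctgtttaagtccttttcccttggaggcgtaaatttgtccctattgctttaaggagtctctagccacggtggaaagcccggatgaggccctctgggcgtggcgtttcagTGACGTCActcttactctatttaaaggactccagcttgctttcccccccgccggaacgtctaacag

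Part of the genes that end such signals were higher as well. Of 22 measured feedback inhibitors, phosphatases and mRNA decay factors that dampen kinase signalling and cytokine messages, 10 were higher at an unadjusted p under 0.05 and 0 lower (all genes 6.15% and 1.69%), none past the adjusted threshold, with a median of 0.72 (0.82 without sham replicate 1; 0.13 over all genes). Rgs1, which speeds the turn-off of G proteins, stood at 55.2, 66.5 and 159 FPKM in FDG-increased and 6.65, 11.3 and 18.4 FPKM in sham ileum. Dusp1, a phosphatase that inactivates MAP kinases, stood at 203, 156 and 67.5 FPKM against 21.8, 35.5 and 40.2 FPKM. Groups did not overlap for either, and the differences were 2.79 (SE 0.476, adjusted p 0.152 in limma) and 1.999 (SE 0.453, adjusted p 0.308). Zfp36, which marks cytokine messages for decay, was at 181, 231 and 136 FPKM against 102, 64.6 and 67.6 FPKM. The other members lay between -0.10 (Spred2) and 1.99 (Dusp5) in difference. Sik1, a kinase induced by cyclic AMP and no member of the list, was at 27.3, 30.4 and 23.9 FPKM against 6.34, 4.64 and 8.66 FPKM, 1.93 higher.

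Among secreted signals, 3 of 10 measured EGF family genes were higher at an unadjusted p under 0.05 and 0 lower (all genes 6.15% and 1.69%). The list median was 0.34 in all libraries and also without sham replicate 1. All 3 higher genes are ligands. Ereg stood at 35.8, 52.3 and 93.3 FPKM in FDG-increased and 4.04, 2.61 and 10.1 FPKM in sham ileum, and Hbegf at 15.9, 30.4 and 26.9 FPKM against 5.54, 2.32 and 3.66 FPKM. Both were separate between groups, by 3.28 (SE 0.474) and 2.40 (SE 0.340) log2 units, each with an adjusted p of 0.096 in limma. Of 15 inflammatory genes, 7 were higher and 0 lower at unadjusted p below 0.05 (all genes 6.15% and 1.69%). Their median was 0.98 (0.75 without sham replicate 1). Ptgs2, the inducible cyclooxygenase, stood at 22.9, 33.6 and 43.1 FPKM against 0.977, 4.56 and 6.37 FPKM, and Ccl2, which attracts monocytes, at 43.6, 31.6 and 113 FPKM against 4.27, 10.4 and 10.7 FPKM. Il1b was at 0.75 and Il18 at 0.30, with unadjusted p of 0.0905 and 0.53 in limma.

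Chaperones of the heat shock response were higher across most of the list. Of 18 measured, 14 were higher at an unadjusted p under 0.05 and 0 lower (all genes 6.15% and 1.69%), for 12 the groups did not overlap (all genes 10.7%), and the median was 1.46. Without sham replicate 1 the median was 1.18 with 11 higher genes, without FDG-increased replicate 3 it was 1.07, and with FDG-increased replicate 1 alone of its group, by its number on lane 7, it was 0.81, the lowest of 15 alternative settings. Hspa1b, the inducible HSP70, stood at 90.2, 109 and 204 FPKM in FDG-increased and 0.985, 11.5 and 13.04 FPKM in sham ileum. Its near-identical neighbour Hspa1a stood at 665, 954 and 61.4 FPKM against 3.63, 10.99 and 37.3 FPKM; reads of this pair may have been divided between them, so each value alone is uncertain. For both, the lowest FDG-increased library was above the highest sham library. Hspb1, a small heat shock protein, stood at 263, 209 and 155 FPKM against 20.6, 40.5 and 49.4 FPKM, and Dnajb1, the HSP40 partner of HSP70, at 103, 127 and 120.0 FPKM against 26.2, 29.8 and 27.3 FPKM. Dnajb1, with tight groups, differed by 2.03 (SE 0.279) and Hspb1, with a wider spread, by 2.53 (SE 0.401). Their adjusted p was 0.096 and 0.128 in limma.

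Differences were smaller than for Dnajb1 and Hspb1 in the chaperones Hspa8, Hsph1, Hspe1 and Hspd1. Hspa8, the HSP70 that folds proteins in unstressed cells, stood at 2248, 3067 and 4397 FPKM in FDG-increased and 1004, 1645 and 1202 FPKM in sham ileum, 1.31 higher (SE 0.367, adjusted p 0.472 in limma). Hsph1, a nucleotide exchange factor, stood at 75.6, 151 and 227 FPKM against 35.1, 77.5 and 46.4 FPKM, where sham replicate 2 exceeded FDG-increased replicate 1. Hspe1, the mitochondrial HSP10, stood at 227, 241 and 442 FPKM against 209, 144 and 122 FPKM. Its partner Hspd1 differed by 0.27 and the regulator Hsf1 by -0.11, with unadjusted p of 0.626 and 0.666 in limma. A joint list of unfolded protein and ATF4 response genes gave 4 higher and 0 lower of 21 at an unadjusted p under 0.05. The shares over all genes were 6.15% and 1.69%, and the list median was 0.17 (0.28 without sham replicate 1, with 3 and 0). Ppp1r15a, which restores translation, was 1.76 higher, Atf4 1.00 and Ddit3 1.15, while the chaperone Hspa5 was at 0.17 (unadjusted p 0.65 in limma).

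Heat shock factor is known to bind inverted repeats of the unit GAA. The motif searched here, alternating units spelled GAANNTTCNNGAA or TTCNNGAANNTTC on both strands, was in the 250 bases before the start of 4 of 13 heat shock genes with a promoter in the RefSeq table (30.8%; Hspa8, Hspd1, Hspe1 and Hsph1), in 0.404% of 8161 tested genes and in 0.597% of 27457 promoters. Hspd1 thus held the motif while its difference lay within the spread of the libraries; Hspd1 and Hspe1 are neighbours known to share a promoter region. The windows of Hspa8 at chr8:50080264-50080513, Hsph1 at chr12:10427118-10427367 and Hspe1 at chr9:64084077-64084326, all plus strand of GRCr8, are printed 5′ to 3′ with the matches in capitals. They start at -213 and -55 relative to the gene start in Hspa8, at -36 in Hsph1, and at -65 and -60, overlapping, in Hspe1.
Hspa8: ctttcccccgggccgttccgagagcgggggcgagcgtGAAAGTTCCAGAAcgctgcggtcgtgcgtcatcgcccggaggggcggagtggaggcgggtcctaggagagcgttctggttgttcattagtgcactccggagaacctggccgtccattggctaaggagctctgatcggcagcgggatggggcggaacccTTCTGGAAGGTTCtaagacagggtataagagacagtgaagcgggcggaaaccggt
Hsph1: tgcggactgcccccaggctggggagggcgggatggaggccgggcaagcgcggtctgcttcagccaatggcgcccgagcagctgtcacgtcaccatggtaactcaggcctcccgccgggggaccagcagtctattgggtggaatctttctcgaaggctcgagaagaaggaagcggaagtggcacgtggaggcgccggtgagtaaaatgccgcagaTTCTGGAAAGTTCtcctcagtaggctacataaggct
Hspe1: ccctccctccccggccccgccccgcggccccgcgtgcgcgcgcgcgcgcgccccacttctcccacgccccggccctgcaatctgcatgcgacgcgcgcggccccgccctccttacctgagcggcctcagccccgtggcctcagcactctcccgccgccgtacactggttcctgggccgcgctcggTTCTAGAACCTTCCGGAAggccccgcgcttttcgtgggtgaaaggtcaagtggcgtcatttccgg

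**Figure D3:**
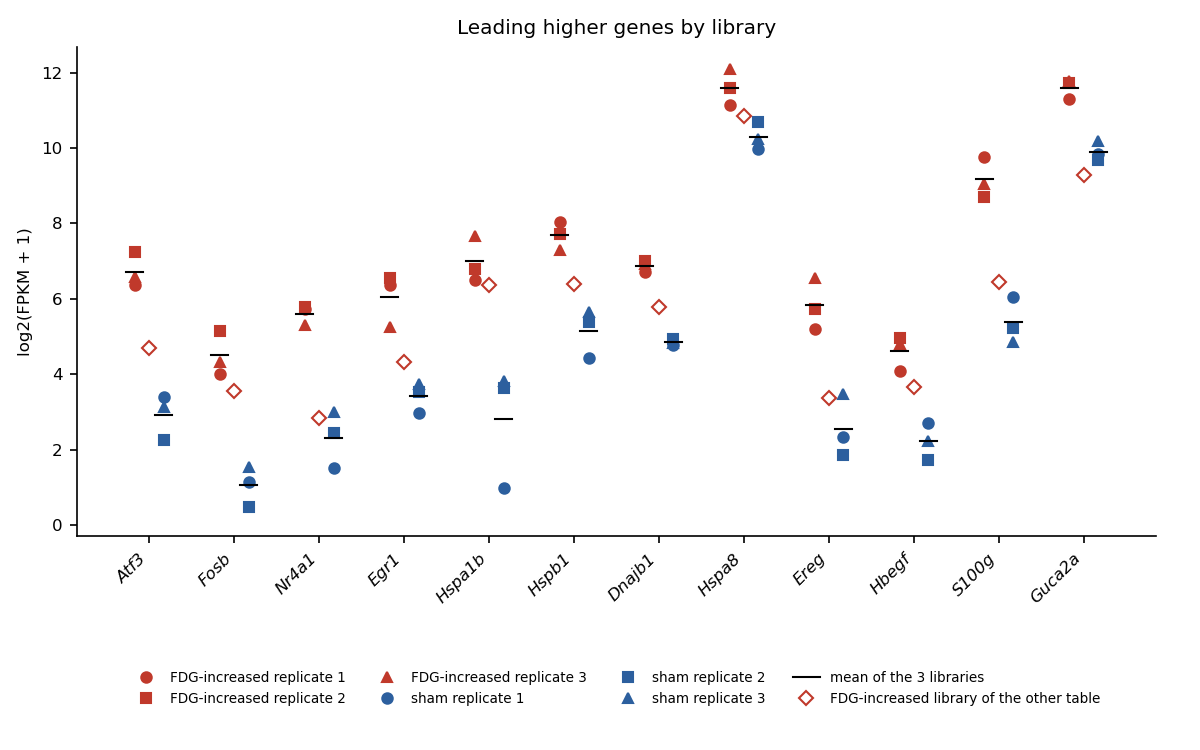
Level of 12 genes, as log2(FPKM + 1), in each library; colours, symbols and bars as in the plot of segment genes. Red points lie above blue points for each gene shown; the open diamond, the FDG-increased library of the other table, lies above the sham points for Hspa1b (82.0 FPKM) and among them for Nr4a1 (6.12 FPKM).

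S100g was the one gene past the adjusted threshold that is not an immediate-early factor. It encodes calbindin-D9k, which ferries calcium through the enterocyte and depends on vitamin D in the upper bowel. It stood at 873, 413 and 526 FPKM in FDG-increased and 65.4, 36.4 and 27.8 FPKM in sham ileum, so that the lowest FDG-increased library was above the highest sham library, and it rose by 3.79 log2 units (SE 0.431, adjusted p 0.0306 in limma). Without sham replicate 1 the difference was 4.13 (adjusted p 0.0874 in limma) and with FDG-increased replicate 1 alone of its group it was 4.40 (adjusted p 0.171 in limma). The 8 other measured genes of calcium and phosphate handling had 0 higher and 0 lower at unadjusted p below 0.05 by limma, and 0 past the adjusted threshold. Among them were Vdr, the vitamin D receptor, at 0.04 and the calcium pump Atp2b1 at 0.81.

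The hormones Nts, Pyy and Gcg of the distal gut were higher and Gip was lower at unadjusted p below 0.05, none past the adjusted threshold. Nts, neurotensin, stood at 167, 164 and 165 FPKM in FDG-increased and 58.5, 68.0 and 61.2 FPKM in sham ileum, with little spread in either group, and at 56.4 FPKM, below all sham libraries, in the further FDG-increased library of the other table. Pyy, which slows the gut and curbs appetite, stood at 52.6, 98.3 and 41.3 FPKM against 7.21, 18.7 and 18.0 FPKM, and Gcg, the source of GLP-1, at 165, 262 and 422 FPKM against 60.3, 109 and 73.4 FPKM. The differences were 1.39 (SE 0.286), 2.06 (SE 0.443) and 1.74 (SE 0.423), with adjusted p of 0.257, 0.268 and 0.39 in limma. Gip stood at 2.29, 0.204 and 0.905 FPKM against 81.2, 10.7 and 3.70 FPKM, lowest in the FDG-increased libraries and highest in sham replicate 1. Without that library Gip was at -1.92 in place of -3.07, and Nts, Pyy and Gcg at 1.34, 1.65 and 1.55. Of 11 hormones measured 3 were higher and 1 lower at unadjusted p below 0.05 (all genes 6.15% and 1.69%), with a median of 0.41. Without sham replicate 1, 4 were higher and 1 lower, with a median of 0.73. Cck was at -0.14 and Sst, somatostatin, at 0.55, neither separate. Chgb, a granule protein of endocrine cells, was at 24.8, 49.2 and 29.6 FPKM against 26.8, 11.4 and 12.99 FPKM, the only 1 of 7 genes of endocrine machinery at an unadjusted p under 0.05 in limma.

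The genes of bile acid uptake give the clearest case of a value set by sham replicate 1. Fabp6 was 3.88 higher (SE 2.30) in all libraries and 0.98 higher without that one, with unadjusted p of 0.138 and 0.011 in limma. Slc51a, one chain of the basolateral exporter, stood at 479, 624 and 920.3 FPKM in FDG-increased and 150.3, 221 and 357 FPKM in sham ileum, 1.51 higher in all libraries and 1.21 without sham replicate 1. Nr1h4, the bile acid receptor FXR, was at 1.239 and 0.88. Of 9 measured genes of bile acid handling 2 were higher and 0 lower at unadjusted p below 0.05 (all genes 6.15% and 1.69%). Their median was 0.99 (0.88 without sham replicate 1). Of 12 distal small intestine genes 5 were higher and 0 lower with a median of 1.11 (0.91). Their summed level was 17506 to 24850 FPKM in FDG-increased libraries, 616 in sham replicate 1, and 8904 and 11984 in sham replicates 2 and 3. Of 11 proximal genes, 0 were higher and 1 lower, with a median of 0.06 (0.38 without sham replicate 1), and summed levels were 4017 to 5664 FPKM against 10927, 2359 and 2459. How far the segment sampled takes part in the differences was not tested.

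Enzymes and transporters of the absorptive surface gave 2 patterns. Some peptidases of the brush border were higher at an unadjusted p under 0.05, none past the adjusted threshold. Naaladl1, which clips glutamate from peptides, stood at 1368, 1740.2 and 1507 FPKM in FDG-increased and 361, 422 and 927 FPKM in sham ileum. Mep1b, a meprin subunit, stood at 396, 458 and 838 FPKM against 171, 187 and 262 FPKM, and Dpp4, which inactivates incretins, at 218, 368 and 843 FPKM against 152, 162 and 218 FPKM. The differences were 1.55, 1.39 and 1.21, with adjusted p of 0.441, 0.472 and 0.623 in limma. Lct, at -3.04, Enpp7, a sphingomyelinase, at -3.54, and Treh, trehalase, at -1.57 lay lower, with sham replicates 1 and 2 the highest libraries for each, and without sham replicate 1 they were at -0.99, -1.77 and -0.16. Of 20 brush-border hydrolases 8 were higher and 0 lower at unadjusted p below 0.05 (all genes 6.15% and 1.69%); the median was 0.72, and 1.10 without sham replicate 1.

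Amino acid transporters were divided. Slc6a19, the main neutral amino acid transporter of the apical membrane, stood at 197, 225 and 219 FPKM in FDG-increased and 95.7, 46.4 and 144 FPKM in sham ileum, and the proline transporter Slc6a20 at 31.9, 43.5 and 34.1 FPKM against 15.9, 13.8 and 21.9 FPKM. Slc7a8, a basolateral exchanger, stood at 16.0, 17.04 and 17.2 FPKM against 73.5, 38.1 and 22.0 FPKM and its relative Slc7a5 at 4.09, 3.88 and 4.69 FPKM against 6.91, 6.59 and 7.51 FPKM. The first pair was 1.30 and 1.06 higher and the second at -1.19 and -0.62, all without overlap. Of 18 measured 3 were higher and 2 lower at unadjusted p below 0.05 (all genes 6.15% and 1.69%). The median of 0.26 was 0.63 without sham replicate 1 and -0.02 under quantile normalization.

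Genes by which cells take up and trap glucose showed 0 higher and 0 lower of 10 measured at an unadjusted p under 0.05 in limma, 0 past the adjusted threshold, and a median of 0.11, above 0 under 11 of 15 alternative settings. The median was 0.38 without sham replicate 1, with 2 higher and 0 lower. Slc2a1, the transporter GLUT1, stood at 7.53, 9.75 and 9.40 FPKM in FDG-increased and 7.87, 5.83 and 5.95 FPKM in sham ileum. Hk2, the hexokinase that traps glucose in growing cells, stood at 19.7, 38.7 and 23.1 FPKM against 12.9, 17.2 and 25.02 FPKM, and Hk1 at 6.38, 6.60 and 6.94 FPKM against 6.79, 7.06 and 8.69 FPKM. All 3 overlapped between groups; their differences were 0.39 (SE 0.238), 0.53 (SE 0.348) and -0.15 (SE 0.223). Without sham replicate 1 Slc2a1 lay higher without overlap, at 0.51, and Hk1 lower without overlap, at -0.21, while Hk2 overlapped, at 0.32. In the further FDG-increased library of the other table Slc2a1 was at 11.9 and Hk2 at 55.1 FPKM, above all sham libraries. Of the 10 genes of the list 3 lay above all sham libraries there and 5 below. Slc5a1, the sodium-coupled transporter of the brush border, stood at 263, 429.7 and 458 FPKM against 1162, 176 and 192 FPKM and the fructose transporter Slc2a5 at 65.3, 97.1 and 99.5 FPKM against 109.9, 19.7 and 20.4 FPKM. Both were highest in sham replicate 1, and without it they were 1.02 and 2.04 higher, with unadjusted p of 0.0246 and 0.000416 in limma, in place of 0.13 and 1.243. Slc2a2, the basolateral GLUT2, stood at 19.0, 9.36 and 50.4 FPKM against 261, 22.5 and 7.01 FPKM and turned from -0.74 to 0.68 without that library.

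The same shift was seen in other lists of metabolism. Glycolysis had 0 higher and 0 lower of 22 genes at an unadjusted p under 0.05 and a median of 0.04 (0.39 without sham replicate 1, when 2 were higher). Gluconeogenesis and fructose use had 0 of 8 in either direction and a median of 0.27 (0.63, with 4 higher), and nuclear genes of oxidative phosphorylation 0 of 24 and 0.25 (0.55, with 3 higher); with limma 0 genes of these 3 lists passed the adjusted threshold. Fat absorption and chylomicrons had 0 higher and 1 lower of 23 (all genes 6.15% and 1.69%) and a median of 0.04 (0.56, with 6 higher and 1 lower). Apoa1, a protein of chylomicrons and HDL, shows how: it stood at 2049, 2812 and 2047 FPKM in FDG-increased and 4805, 720.2 and 1115 FPKM in sham ileum, with sham replicate 1 above every other library and sham replicates 2 and 3 below. Fabp1, which binds fatty acids, stood at 3845, 4853 and 5356 FPKM against 10308, 2220.4 and 2308 FPKM, likewise. Ces1d, a carboxylesterase, was the 1 lower gene, at 1.44, 2.13 and 0.00626 FPKM against 5.81, 24.97 and 3.39 FPKM. The medians of glycolysis and of fat absorption each kept their sign under 9 of 15 alternative settings.

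**Figure D4:**
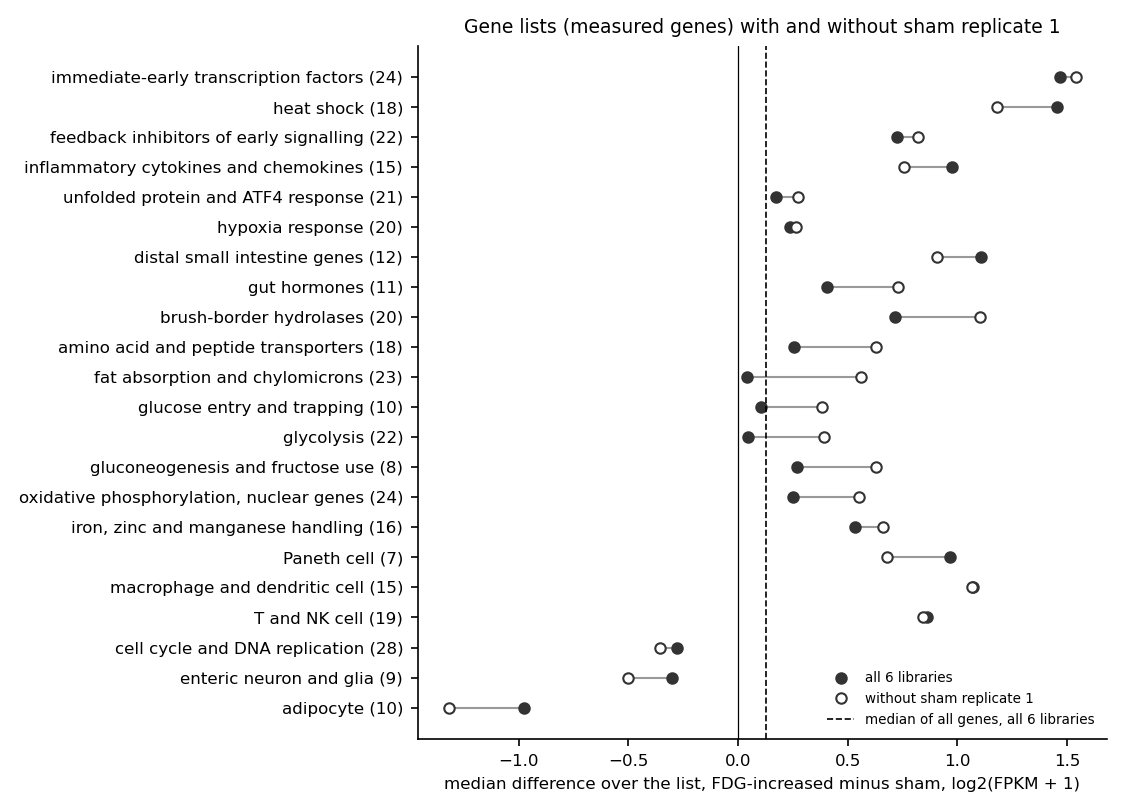
Median difference over the measured genes of 22 lists (number in brackets), FDG-increased minus sham on the log2(FPKM + 1) scale: filled, all 6 libraries; open, without sham replicate 1; dashed, the median of all genes (0.13). Immediate-early and heat shock lists lie farthest right, at 1.47 and 1.46 with all libraries, and metabolic lists such as glycolysis move from 0.04 to 0.39.

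Some genes of metal balance, xenobiotic export and fluid control were also among the higher genes. Of 16 genes of iron, zinc and manganese handling 6 were higher and 0 lower at unadjusted p below 0.05 (all genes 6.15% and 1.69%). Their median was 0.54 (0.66 without sham replicate 1). Slc30a10, a manganese exporter, stood at 43.3, 32.5 and 25.7 FPKM in FDG-increased and 11.3, 2.38 and 5.55 FPKM in sham ileum, and Mt2A, a metallothionein that binds zinc, at 1256, 1457 and 2306 FPKM against 701, 470.1 and 274 FPKM. Neither overlapped between groups, with differences of 2.39 (SE 0.446) and 1.85 (SE 0.426). Abcb1a, P-glycoprotein, which pumps drugs back into the lumen, stood at 156, 310.4 and 533 FPKM against 66.5, 56.1 and 111 FPKM. Abcg2, a second such pump, was at 149.9, 193 and 366 FPKM against 60.7, 66.1 and 115 FPKM. Of 24 genes of drug and retinoid metabolism 3 were higher and 0 lower (all genes 6.15% and 1.69%), with a median of 0.27. Without sham replicate 1, 7 were higher and 1 lower, with a median of 0.54. Guca2a, guanylin, the peptide that drives salt and water secretion, stood at 2549, 3372 and 3534 FPKM against 917, 825 and 1170.3 FPKM, 1.70 higher (SE 0.317, adjusted p 0.183 in limma). Its relative Guca2b was at -0.10 and their receptor Gucy2c at 0.53, with unadjusted p of 0.888 and 0.178 in limma.

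Many markers of immune cells were higher in the FDG-increased libraries at an unadjusted p under 0.05, none past the adjusted threshold. In bulk tissue more cells of a type and more RNA per cell cannot be told apart. Csf1r, the growth factor receptor of macrophages, stood at 28.5, 23.4 and 32.1 FPKM in FDG-increased and 13.1, 7.34 and 12.5 FPKM in sham ileum; Tyrobp, a signalling adaptor of myeloid and NK cells, stood at 42.3, 25.5 and 39.7 FPKM against 16.4, 9.13 and 14.2 FPKM. Cd7, of T and NK cells, stood at 38.8, 49.7 and 68.3 FPKM against 21.5, 9.06 and 19.6 FPKM. None of the 3 overlapped between groups. Of 15 macrophage and dendritic genes 10 were higher and 0 lower at unadjusted p below 0.05 (median 1.07, also without sham replicate 1), and of 19 T and NK genes 12 and 0 (median 0.86, and 0.84 without it), against 6.15% and 1.69% of all genes. The counts were 9 and 8 higher and 0 lower without sham replicate 1. Summed levels were 3398 to 8126 against 2014 to 3771 FPKM for the macrophage list, which holds Lyz2, also made by Paneth cells, and 164 to 273 against 62.1 to 118 FPKM for the T and NK list. Marco was listed at 0 in all 6 libraries, as were the ribosomal genes Rpl8 and Rps6, which every cell uses, so that a listed 0 may not mean absence. The inflammatory genes above were higher in the same group as these markers. Among the sham libraries the inflammatory list had its lowest mean log2(FPKM + 1) in replicate 1, at 2.06. The macrophage list had its lowest in replicate 2, at 3.61. The order of the sham libraries does not bear on the difference between groups. The part of immune cells in the inflammatory genes was not tested.

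Paneth cells, which release antimicrobial peptides at the base of the crypt, supplied several of the most abundant messages. Defa24, an alpha-defensin, stood at 15243, 10267 and 13558 FPKM in FDG-increased and 3829.9, 9228 and 8664 FPKM in sham ileum, and Defa8 at 9977, 6199 and 8700.3 FPKM against 1815, 4487 and 4204 FPKM. Sham replicate 1 was the lowest library for both, and the differences of 0.93 and 1.32 were 0.52 and 0.90 without it. Of 7 Paneth genes 3 were higher and 0 lower at unadjusted p below 0.05 (all genes 6.15% and 1.69%), with a median of 0.97 (0.68). Defensins are a family of near-identical copies, and their reads may be divided among them. Reg3g, a lectin that kills Gram-positive bacteria, stood at 2152, 3789.6 and 3820.4 FPKM against 57.7, 1344 and 556 FPKM, and Zg16, a goblet cell lectin, at 3030.0, 3127 and 3655 FPKM against 2058, 1111 and 694 FPKM. Both were separate between groups, though the sham libraries of Reg3g spread widely. Of 10 antimicrobial genes, Reg3g among them, 3 were higher and 0 lower at unadjusted p below 0.05 (all genes 6.15% and 1.69%). Their median was 0.89 (0.27 without sham replicate 1, with 4 and 0). Of 8 goblet cell genes Zg16 was the only 1 higher, and 0 were lower. The goblet median was 0.59 (0.79 without sham replicate 1, with 2 and 0), and -0.05 under quantile normalization.

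Lower genes were fewer and their differences smaller, and 0 fell at an adjusted p under 0.05 by limma. Lipg, endothelial lipase, stood at 4.87, 5.01 and 6.07 FPKM in FDG-increased and 10.6, 10.4 and 11.5 FPKM in sham ileum, at a difference of -0.91 (SE 0.222, adjusted p 0.39 in limma). P2rx7, an ATP-gated channel, stood at 3.41, 4.07 and 3.72 FPKM against 12.2, 6.76 and 8.40 FPKM, and Dmbt1, a mucosal scavenger protein, at 172, 223 and 257 FPKM against 527, 597 and 400.0 FPKM. In the further FDG-increased library of the other table Dmbt1 was at 1881 FPKM, above all sham libraries. Lipg and P2rx7 lay below all sham libraries there. The differences of the 12 genes that lead the lower side, which also hold Rnf26, Tril, Ephb3, Ces1d, Tnxa-ps1 and Snhg4, ran from -2.22 (Ces1d) to -0.76 (Cdt1). Of the rest, 3 serve DNA replication or mitosis: Pole, the leading-strand polymerase, at 2.84, 2.39 and 3.15 FPKM against 4.69, 6.83 and 5.33 FPKM, Cdt1, which licenses origins, and Bora, an activator of Aurora A. In the list of cell cycle and DNA replication 0 of 28 were higher and 5 lower (all genes 1.69%; 2 lower without sham replicate 1) at unadjusted p below 0.05 in limma, for 9 the groups did not overlap with FDG-increased lower (4.44% of all genes), and the median was -0.28 (-0.36 without sham replicate 1), below 0 in all 15 alternative settings. Cdc6 stood at 1.53, 1.88 and 1.53 FPKM against 2.61, 4.84 and 3.12 FPKM and Rrm2, a ribonucleotide reductase subunit, at 17.4, 16.0 and 26.2 FPKM against 34.3, 45.4 and 28.4 FPKM, while Mki67, at 14.6, 24.8 and 31.2 FPKM against 30.2, 48.5 and 34.0 FPKM, overlapped.

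Some lower genes mark tissue outside the mucosa. Of 10 adipocyte genes 0 were higher and 2 lower at unadjusted p below 0.05 (all genes 6.15% and 1.69%), with a median of -0.98. Without sham replicate 1, 5 were lower (all genes 2.18%), with a median of -1.32. Summed adipocyte levels were 83.5 to 128 FPKM in FDG-increased libraries and 91.2, 601 and 181 FPKM in sham replicates 1, 2 and 3; Pnpla2 was listed at 0 throughout. The 2 lower genes with all libraries were Lipe and Cidec. Lipe stood at 3.85, 5.04 and 4.13 FPKM against 11.2, 9.16 and 5.60 FPKM, highest in sham replicate 1. Cidec stood at 9.10, 11.85 and 8.53 FPKM against 22.4, 33.0 and 11.91 FPKM. Plin1, which coats fat droplets, stood at 0.0447, 0.801 and 0.0445 FPKM against 0, 7.56 and 2.14 FPKM. It was thus above the other libraries in sham replicates 2 and 3 and listed at 0 in sham replicate 1. Plin1 overlapped between groups, with an unadjusted p in limma of 0.0865, and 0.00324 without sham replicate 1. S100b, listed here with enteric neurons and glia, stood at 2.12, 4.01 and 2.12 FPKM against 1.79, 23.4 and 7.41 FPKM. Nnat, neuronatin, was at 5.86, 7.46 and 4.68 FPKM against 4.93, 44.3 and 18.2 FPKM. Their unadjusted p in limma was 0.105 and 0.0607 with all libraries, and 0.00455 and 0.00136 without sham replicate 1. Which cells the RNA of either gene came from was not tested. Of 9 genes of enteric neurons and glia, 0 were higher and 0 lower at unadjusted p below 0.05 by limma, 0 passed the adjusted threshold, and the median was -0.30. Without sham replicate 1, 0 were higher and 1 lower, with a median of -0.50. The single gene called without sham replicate 1 was Mir3567, a microRNA locus that RefSeq now lists under Mir126a. It was listed at 0 in the FDG-increased libraries and sham replicate 1, and it reached 58.7 FPKM in sham replicate 2 and 61.3 FPKM in the third; such a short locus has few fragments behind its FPKM.

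Other cell types that bulk ileum holds were counted in the same way, at an unadjusted p under 0.05. Over all genes 6.15% were higher and 1.69% lower. The list of B and plasma cells had 3 higher and 0 lower of 7 measured and a median of 0.27 (0.58 without sham replicate 1, with the counts 3 and 0). MHC class II presentation had 3 and 0 of 8 and a median of 1.00 (1.03, with 1 and 0), mast cells, eosinophils and neutrophils 1 and 0 of 7 and 0.73 (0.58, with 1 and 0), and tuft cells 1 and 0 of 8 and 0.35 (0.59, with 2 and 0). Prg2, of eosinophils, was listed at 0 throughout. Endothelial genes had 0 higher and 0 lower of 14 by limma, with 0 past the adjusted threshold and a median of -0.11 (-0.36 without sham replicate 1, with 0 and 2). Fibroblast and matrix genes had 0 and 2 of 17 and a median of -0.08 (-0.23, with 0 and 3). Smooth muscle genes had 0 and 1 of 14 and a median of -0.06, which turned to 0.08 without sham replicate 1, with 0 and 1. Of the pancreatic genes Prss1, Cpa1, Pnlip and Cpb1 were listed at 0 in all 6 libraries.

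The FDG-increased library of the other table is a sample of the same label that the fit did not use, and it did not repeat all of these patterns. Over all genes 16.1% of its values lay above and 34.5% below all 3 sham libraries. Of the 1153 genes with FDG-increased above sham, 281 (24.4%) lay above and 427 (37.0%) below; of the 480 genes with FDG-increased below sham, 321 (66.9%) lay below and 38 (7.92%) above. It held 24.9 FPKM of Atf3, 10.8 of Fosb and 86.1 of S100g, above all sham libraries, and 6.12 of Nr4a1, within their range. Of 18 heat shock genes 14 were above all sham libraries and 0 below, and of 7 Paneth genes 6 and 0. Of 24 immediate-early factors 8 were above and 3 below. Of 22 feedback inhibitors 6 were above and 6 below, with Dusp1 at 18.0 FPKM, below all sham libraries. Of 15 inflammatory genes 1 was above and 4 below, with Ptgs2 and Ccl2 within the sham range. Its immune markers were at the other end: 0 of 19 T and NK genes were above and 16 below, and 0 of 15 macrophage genes above and 14 below, with Csf1r at 2.09 FPKM. Of 20 brush-border genes 1 was above and 14 below. Of 14 smooth muscle genes 11 were above and 0 below, with a summed level of 2195 FPKM against 952 to 1422 in sham and 1202 to 1337 in the FDG-increased libraries. Its LOC257642, at 14338 FPKM, was within the sham range.

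**Figure D5:**
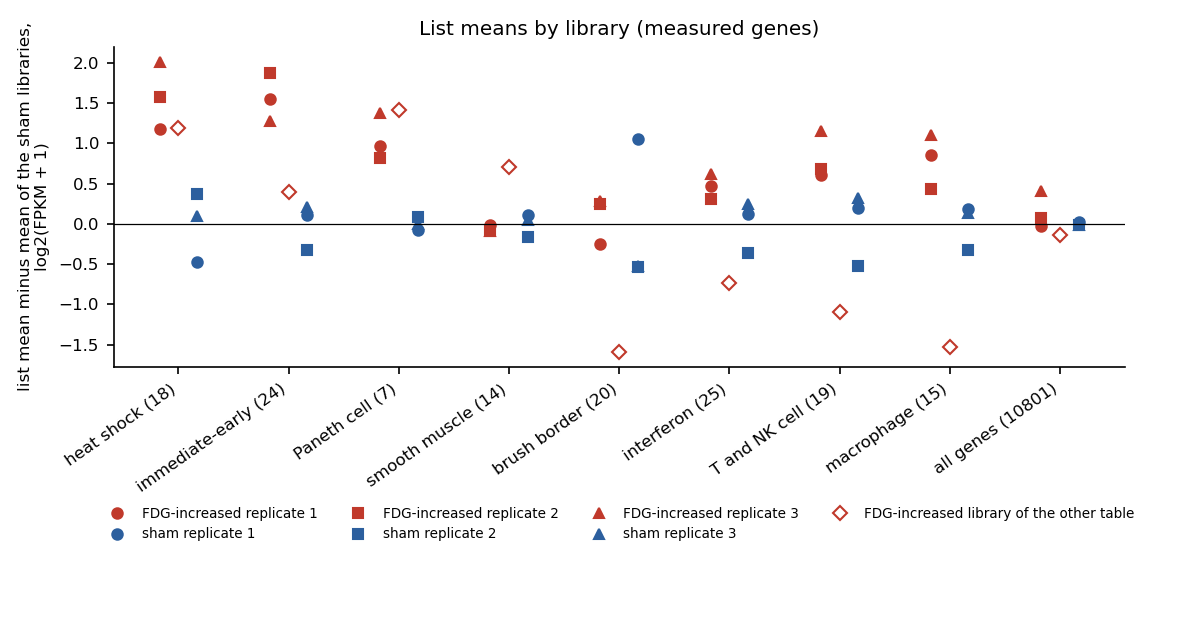
Mean of log2(FPKM + 1) over each list (measured genes in brackets), less the mean of the sham libraries; colours and symbols as in the plots of single genes. The FDG-increased library of the other table (open diamonds) lies with the 3 tested libraries for heat shock (1.20 against 1.18 to 2.02), and below each sham library for macrophage (-1.52) and brush-border genes (-1.59).

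Interferon response genes had 7 higher and 0 lower of 25 at an unadjusted p under 0.05 (all genes 6.15% and 1.69%). Their median was 0.39 (0.56 without sham replicate 1, with 9 and 0). Oas1a, an antiviral sensor, stood at 29.9, 11.2 and 18.5 FPKM in FDG-increased and 7.39, 3.83 and 7.40 FPKM in sham ileum. In the further FDG-increased library 0 of the 25 lay above all sham libraries and 19 below, with Oas1a at 2.35 FPKM. The hypoxia list had 1 higher (Adm, adrenomedullin, 1.15) and 1 lower (Ddit4, -0.97) of 20, near the shares of all genes (6.15% and 1.69%), with a median of 0.24 (0.26 without sham replicate 1, with 3 and 0). The clock list had 1 higher (Dbp, 0.97) and 0 lower of 14, also near those shares, with a median of 0.11 (also without sham replicate 1, with 2 and 0), above 0 under 10 of 15 alternative settings. Ribosomal proteins had 0 of 20 in either direction at an unadjusted p under 0.05 in limma and a median of 0.48 (0.52 without sham replicate 1, with 1 and 0); under quantile normalization the median was -0.09. Cholesterol synthesis had 0 of 24 in either direction and a median of 0.30 (also without sham replicate 1, with 1 and 1), and the stem cell list 0 of 12 and -0.02 (-0.17, with 0 and 0); by limma 0 genes of these 3 lists passed the adjusted threshold.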

How the data were processed

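RNA-seq values came as FPKM in tables the authors deposited, per the file headers. The submitters' processing notes name bcl2fastq 1.8.4, STAR 2.6.0a, Cufflinks 2.2.1, Cuffdiff and DESeq2 1.24.0, and list the human build hg19 although the table's symbols are those of rat genes; how these fit together is not given in the sources used here. Depth is unknown. Low values did not fall on whole-read steps, so no counts were recovered and limma 3.58.1 (R 4.3.3; trend and robust variances, Benjamini-Hochberg adjustment) was fitted to log2(FPKM + 1) of 10801 genes, those whose mean reached 1 FPKM, after leaving out 25 symbols changed into dates. The script was tested on simulated data. Summaries used Python 3.11.15 with pandas 2.3.3.

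Genes and the 46 gene lists (803 genes, 764 found, 669 measured) were chosen with earlier results of these data known. Named were genes past the adjusted threshold, the 12 higher and 12 lower genes of smallest p with groups apart, 10 each without sham replicate 1, the 5 most abundant, up to 4 of smallest p per list, and markers of segment and glucose entry. Chosen after their values were seen were LOC257642, Fos, Egr2, Klf6, Ier2, Myc, Klf2, Klf10, Spred2, Zfp36, Il1b, Il18, Hspa1a, Hspa8, Hsph1, Hspe1, Hspd1, Hsf1, Hspa5, Vdr, Cck, Sst, Dpp4, Enpp7, Treh, Slc7a5, Apoa1, Guca2b, Gucy2c, Mki67 and Ch25h, and the genes named for a listed 0 or a promoter motif. Alternatives were other pseudocounts, filters, scalings and variances, a replicate block, lane 7 alone (by column number) and leaving out each library.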

Additional observations from a re-analysis of the deposited data

How the results depend on the processing

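The number of genes called at an adjusted p under 0.05 by limma, 4 with all libraries, was 1 with a pseudocount of 0.1 FPKM, 0 with no filter on low values (741 higher and 314 lower at unadjusted p below 0.05), 1 with libraries shifted to the same median, 0 with quantile normalization (479 and 333) and 0 with lane 7 alone, by column number (149 and 108); it was 5 with plain variances and 4 with a mean of at least 5 FPKM. Leaving out 1 library at a time gave 0 to 13. Without FDG-increased replicate 3 and sham replicate 1 together, an alternative chosen after seeing the data, it was 179, which held all 4 genes. Atf3 was the gene kept with the pseudocount of 0.1 and with the same median.

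Genes higher at an unadjusted p under 0.05, 664 with all libraries, numbered 149 within lane 7, 1196 without both libraries named above and 376 to 824 with 1 library left out. Genes lower, 183 with all libraries, numbered 314 with no filter, 98 with a mean of at least 5 FPKM, 368 with the same median, 333 with quantile normalization, 108 within lane 7, 969 without both libraries and 91 to 329 with 1 left out. Genes with all FDG-increased libraries above all sham libraries, 1153, numbered 2154 within lane 7, 3048 without both libraries and 1468 to 2436 with 1 left out; those below, 480, numbered 265 with a mean of at least 5 FPKM, 787 with the same median, 768 with quantile normalization, 2964 within lane 7, 2792 without both and 637 to 1466 with 1 left out. Fewer libraries make groups apart more often by construction. The median difference of all genes, 0.13, was -0.0449 within lane 7. For the other shifts the cause was not tested.

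Groups share replicate numbers, but no label says that a number marks a shared animal or day. Deviations of samples with the same number correlated at 0.35, -0.50 and -0.25, so the numbers were not taken as pairs; with a replicate block limma called 39 genes. Of the 60 values of the 4 called genes over the alternatives, 25 kept the call, 35 lost it and 0 changed direction. Limits are the 3 libraries a group, a sham library with markers of the upper bowel, lanes unequal between groups, and FPKM without depth. A last limit is the further library of the same label, which differed in immune, brush-border and other genes.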

Other observations

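The row of highest mean over the 6 libraries was Rmrp, the RNA of a ribonucleoprotein that cuts ribosomal RNA precursors, at 30844, 26751 and 23697 FPKM in FDG-increased and 18437, 12957 and 14553 FPKM in sham ileum, without overlap; within sham ileum LOC257642 had the higher mean, 17006 against 15316 FPKM. The difference of Rmrp was 0.83 log2 units, with an unadjusted p of 0.022 in limma. In the further FDG-increased library Rmrp was at 11282.5 FPKM, below all sham libraries. Ch25h, which makes 25-hydroxycholesterol, stood at 81.9, 42.8 and 30.2 FPKM in FDG-increased and 1.74, 5.37 and 11.6 FPKM in sham ileum, 3.00 higher. Klk8, a serine protease, stood at 7.24, 8.59 and 9.87 FPKM against 5.53, 1.85 and 1.63 FPKM, 1.38 higher in all libraries and 1.797 higher without sham replicate 1.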
